A study of Livoneca redmanii with 3 samples.

Results

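C-type lectin domain genes were followed across 3 RNA sequencing libraries made from whole specimens of Livoneca redmanii, a fish-parasitic isopod of the family Cymothoidae. The members were every contig of the assembled gene TRINITY_DN43_c0_g1, together with every other contig whose deposited description contains the words C-type lectin. This gave 5 assembled genes with 13 contigs, out of 26084 assembled genes with 31922 distinct contigs. An assembled gene is a group of contigs that the assembler joined by shared sequence, and a contig is one reconstructed transcript. Specimens came from Tilapia zilli hosts in Lake Qarun. The low-temperature specimens were cooled from 26 to 10 °C, the low-salinity specimens were brought gradually from 35 to 8 PSU, and the control specimens were held at 35 PSU and 26 °C. The labels used here give no salinity for the cooled specimens and no temperature for the low-salinity specimens. They also do not say how many specimens, or of which sex or stage, went into a library. With 1 library per condition, differences have no replicate check and conditions were not tested against each other. All intervals are 95% and cover counting error only.

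C-type lectins are proteins with a compact fold, the carbohydrate-recognition domain, that often binds sugars with the help of calcium. In crustaceans many are secreted into the hemolymph by hemocytes and the hepatopancreas, where they recognise sugars on microbes, clump them and help start phagocytosis and melanisation. The same fold is also found in proteins that bind no sugar, and in adhesion proteins, so the domain by itself does not set a role.

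The libraries held 2782324 counts in low temperature, 1434390 in low salinity and 2142836 in control. Contigs described with words of mobile genetic elements took 4.65% of counts in the low-temperature library, 55.0% in low salinity and 48.4% in control. This share was low in the library where the lectin counts were high, and its part in the results was not tested. Libraries were put on a common scale by the trimmed mean of M values (TMM), with factors of 0.208, 1.99 and 2.42 for low temperature, low salinity and control. Scaling by total counts instead moves a log2 ratio of counts by -3.54 in low temperature over control, by -3.26 in low temperature over low salinity and by -0.28 in low salinity over control, so folds are given under both scalings. Log2 ratios with a prior count of 0.5 move less where counts are few.

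The lectin gene TRINITY_DN43_c0_g1 had most of its counts in the cooled specimens and was close to 0 in both other libraries. It summed to 7253 estimated counts in low temperature, with an exact Poisson interval of 7087 to 7422, 6 in low salinity (2.20 to 13.1) and 7 in control (2.81 to 14.4). As a share of its library this was 0.261% in low temperature (exact binomial interval 0.255% to 0.267%), 0.000418% in low salinity (0.000154% to 0.00091%) and 0.000327% in control (0.000131% to 0.000673%). The intervals of low salinity and control overlap, and neither reaches that of low temperature. In such bulk libraries, fewer cells that make a transcript and less of it per cell cannot be told apart.

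On the TMM scale the gene stood at 12541 CPM (counts per 1000000 counts of the scaled library) in low temperature, 2.10 in low salinity and 1.35 in control. It was 9275-fold higher in low temperature than in control (exact conditional binomial interval 4499 to 23077). Scaling by total counts gave 798-fold (387 to 1986). Against low salinity the low-temperature level was 5970-fold higher (2742 to 16274), or 623-fold (286 to 1699) with total counts. Low salinity and control, the neighbours at the low end of the order, could not be separated at this depth: the scaled ratio of low salinity to control was 1.55 with an interval from 0.431 to 5.40, and 1.28 (0.356 to 4.45) with total counts.

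In low temperature all 9 contigs of TRINITY_DN43_c0_g1 had counts, while low salinity showed 2 of them and control 1. The most abundant, TRINITY_DN43_c0_g1_i7, is described as a C-type lectin and had 3390 counts in low temperature, 3 in low salinity and 7 in control. It was the single contig of the 9 with counts in every library. With TMM it was 4335-fold higher in low temperature than in control (2102 to 10790), and 373-fold (181 to 928) with total counts. TRINITY_DN43_c0_g1_i19, which carries no annotation, had 1505 counts in low temperature and 0 in both other libraries. TRINITY_DN43_c0_g1_i6, also without annotation, had 1390 counts in low temperature, 3 in low salinity and 0 in control. These 3 contigs held 86.7% of the gene's low-temperature counts (85.8% to 87.4%). A library at 0 was set to a floor of 3 counts and the low-temperature count was taken as measured. By this rule i19 was at least 4491-fold and i6 at least 4147-fold higher in low temperature than in control on the TMM scale, or at least 386-fold and 357-fold with total counts. With counting error in both libraries, the lower ends of the exact conditional binomial intervals were 3648-fold and 3368-fold with TMM, and 314-fold and 290-fold with total counts.

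The other 6 contigs had counts in low temperature alone. TRINITY_DN43_c0_g1_i10, without annotation, had 474. The lectin-described TRINITY_DN43_c0_g1_i13, TRINITY_DN43_c0_g1_i3 and TRINITY_DN43_c0_g1_i24 had 198, 127 and 67 counts, and the unannotated TRINITY_DN43_c0_g1_i2 and TRINITY_DN43_c0_g1_i25 had 51 each. Under TMM scaling all 9 contigs passed the size rule used here, a ratio of low temperature to control of 2-fold or more. Of all 8563 contigs with a mean count of at least 10, 54.8% passed that rule in the same direction. All 9 contigs reached that mean count through low temperature, 7 of them with counts in no other library, so their call was fixed by the filter.

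**Figure D1:**
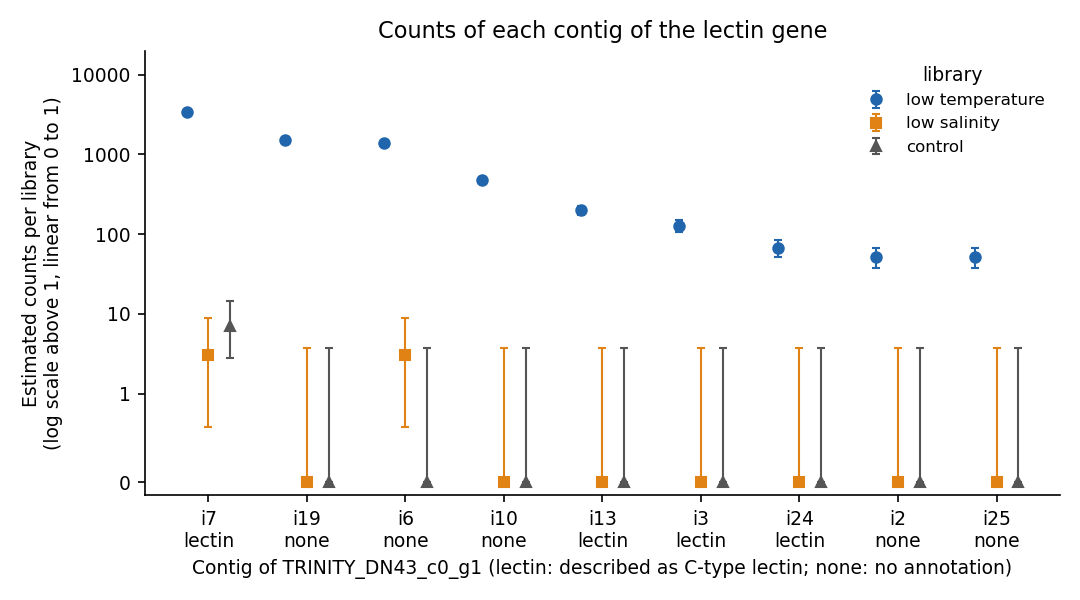
Estimated counts of the 9 contigs of the lectin gene in each library (y axis, logarithmic above 1 and linear from 0 to 1), with exact Poisson 95% intervals. Every low-temperature point, from 51 to 3390 counts, lies above all points of low salinity and control, which reach 7 counts at most.

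The description as a lectin rests on part of the gene. Of the 9 contigs, 4 carry it and 5 carry no annotation. The described contigs held 3782 of the 7253 low-temperature counts, or 52.1% (exact binomial interval 51.0% to 53.3%), 3 of 6 in low salinity and 7 of 7 in control. The leading contig i7 held 46.7% of the gene's counts in low temperature (45.6% to 47.9%), 50% in low salinity (11.8% to 88.2%) and 100% in control (59.0% to 100%). The control interval lies above the low-temperature share, but it rests on 7 counts, and estimated counts can be divided between near-identical contigs by the quantification. The contigs' lengths are not among the files used here, so shares of counts are not shares of molecules.

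The best-matching proteins listed for the 4 described contigs come from vertebrates, by the taxon numbers in the file. Contigs i7, i13 and i3 point to 1 protein of taxon 8479, the painted turtle, and i24 to a protein of taxon 8010, the northern pike. Among all 6666 contigs with a listed best match, 16 point to that turtle and 21 to that pike. The turtle-matching contigs had 3996 counts in low temperature, 7 in low salinity and 13 in control. These totals include the 3 lectin contigs, of which i7 alone had 3390, 3 and 7 counts. In low temperature they are therefore mostly the lectin gene's own counts. The pike-matching contigs had 2071, 132 and 236 in the same order, of which i24 had 67, 0 and 0. Because the specimens were taken from fish, words for fish blood and skin genes were also searched. No contig matched hemoglobin, serum albumin, transferrin, major histocompatibility, keratin, type I collagen or fibrinogen chains. Apolipoprotein matched 2 contigs with 44 counts in low temperature, 0 in low salinity and 0 in control. Immunoglobulin matched 41 contigs with 2178, 46 and 155 counts in low temperature, low salinity and control. In low temperature the host list was led by sls and unc-22, names of giant muscle proteins of the fly and the nematode, with 1027 and 585 counts. These had 0 and 0 counts in low salinity, and 0 and 1 in control, so they do not make up the counts of those libraries. Whether any lectin counts come from host tissue was not tested.

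The 4 other lectin genes had far fewer counts, and had them in low temperature alone, with 167 counts there and 0 in low salinity and 0 in control. In total TRINITY_DN43_c0_g1 held 97.7% of the 7420 low-temperature counts of the 5 genes. The gene clec-78 (TRINITY_DN29490_c0_g1), named after a nematode C-type lectin, had 79 counts in low temperature (62.5 to 98.5), 0 in low salinity and 0 in control. It is also listed with a second description, calcium ion binding. Against a floor of 3 counts per library it was at least 236-fold higher in low temperature than in control, or at least 20.3-fold with total counts. The lower ends of its exact intervals were 187-fold and 16.1-fold. Against low salinity the bounds from the floor were 130.1-fold and 13.6-fold, and the lower ends of the exact intervals 103-fold and 10.8-fold. The floor is 5.19, 1.05 and 0.58 CPM on the TMM scale in low temperature, low salinity and control.

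CTLGA3 (TRINITY_DN33966_c0_g1), which carries a mosquito name for galactose-binding lectins, had 43 counts in low temperature (31.1 to 57.9), 0 in low salinity and 0 in control. Against the floor it was at least 128-fold higher than in control, or at least 11.0-fold with total counts. For low salinity the floor gave 70.8-fold or 7.39-fold. The lower ends of its exact intervals were 99.9-fold and 8.60-fold against control, and 55.1-fold and 5.76-fold against low salinity. CLECL1 (TRINITY_DN53709_c0_g1), named after a lectin-like membrane protein of mammalian immune cells, had 38 counts in low temperature (26.9 to 52.2), 0 in low salinity and 0 in control. Against the floor it was at least 113-fold higher than in control, or at least 9.76-fold with total counts. For low salinity the floor gave 62.6-fold or 6.53-fold. Its lower ends were 87.8-fold and 7.55-fold against control, and 48.4-fold and 5.06-fold against low salinity. The best matches of these 2 genes are a water flea protein (taxon 6669) for CTLGA3 and an armadillo protein (taxon 9361) for CLECL1. For clec-78 they are butterfly (taxon 34740) and fruit fly (taxon 7244) proteins.

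CNTN3 (TRINITY_DN68980_c0_g1) bears the name of a contactin. In the fly, contactin is a cell adhesion protein of septate junctions that combines a lectin domain with immunoglobulin domains, so its description need not point to immunity. It had 7 counts in low temperature (2.81 to 14.4), 0 in low salinity and 0 in control, a level named here after its values were seen. Against the floor in control this was 20.9-fold with TMM but 1.80-fold with total counts, under the size rule, and the lower ends of the exact intervals were 12.9-fold and 1.11-fold. With total counts the lower end against low salinity was 0.743, so a difference was not detectable there on that scale. Its mean count of 2.33 kept it out of the comparison across genes. Its best match is an ant protein (taxon 103372).

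**Figure D2:**
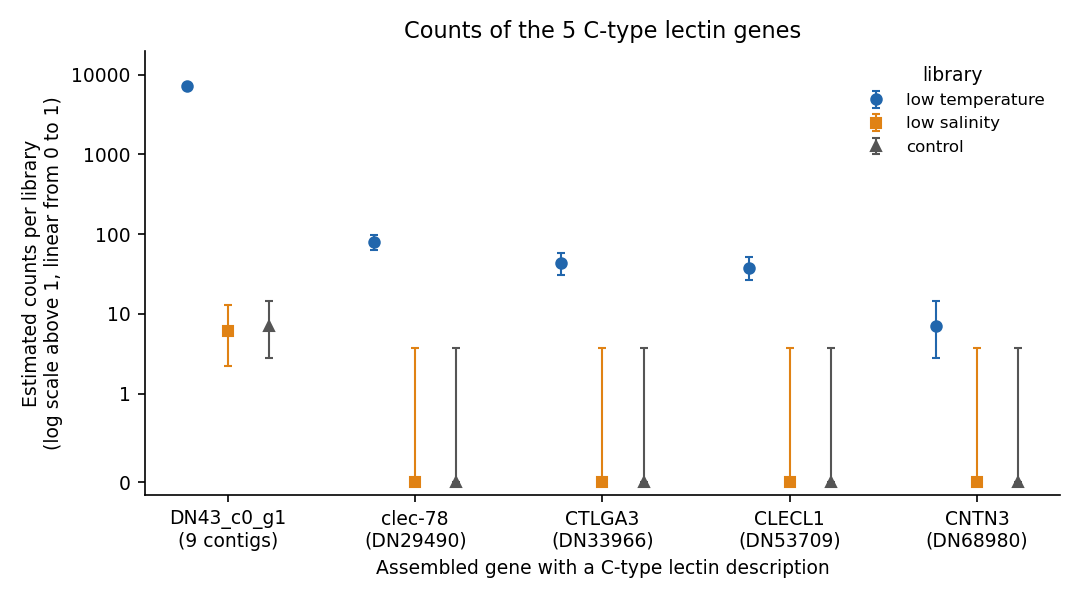
Estimated counts of the 5 C-type lectin genes in each library (y axis, logarithmic above 1 and linear from 0 to 1), with exact Poisson 95% intervals, whose upper end at 0 counts is 3.69. Low-temperature points run from 7 counts for CNTN3 to 7253 for TRINITY_DN43_c0_g1, which is also the single gene with counts in low salinity (6) and control (7).

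The direction of these genes was that of nearly all annotated genes. Of the 5503 assembled genes with a mean count of at least 10, 58.3% were higher by the size rule in low temperature than in control and 27.9% lower. With total counts these shares were 51% and 46.5%. Among the 1912 of them with an annotation and no mobile-element words, 96.5% were higher and 2.67% lower, and 75% had counts in low temperature alone. The 4 lectin genes that passed the mean-count filter were all higher, against those shares. All 4 passed the filter through low temperature, 3 of them with counts there alone, so these calls were fixed by the filter. In low temperature against low salinity 59.3% of the tested genes were higher and 26.8% lower. Among the annotated genes outside mobile elements these shares were 96.5% and 2.35%. The same 4 lectin genes were higher.

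The log2 ratio of low temperature to control of the main lectin gene was 13.00, against a median of 6.33 over all tested genes and 9.37 over the annotated genes outside mobile elements. With libraries at 0 set to 3 counts these medians were 6.44 and 7.86. Of the 1912 annotated genes, 46 had a higher ratio than the lectin gene under TMM and 92 under total counts. Many of these ratios have a control library at 0 and depend on the prior count of 0.5. Among the 67 annotated genes with at least 1000 low-temperature counts, described further on, 50 had fewer control counts per low-temperature count than the lectin gene.

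**Figure D3:**
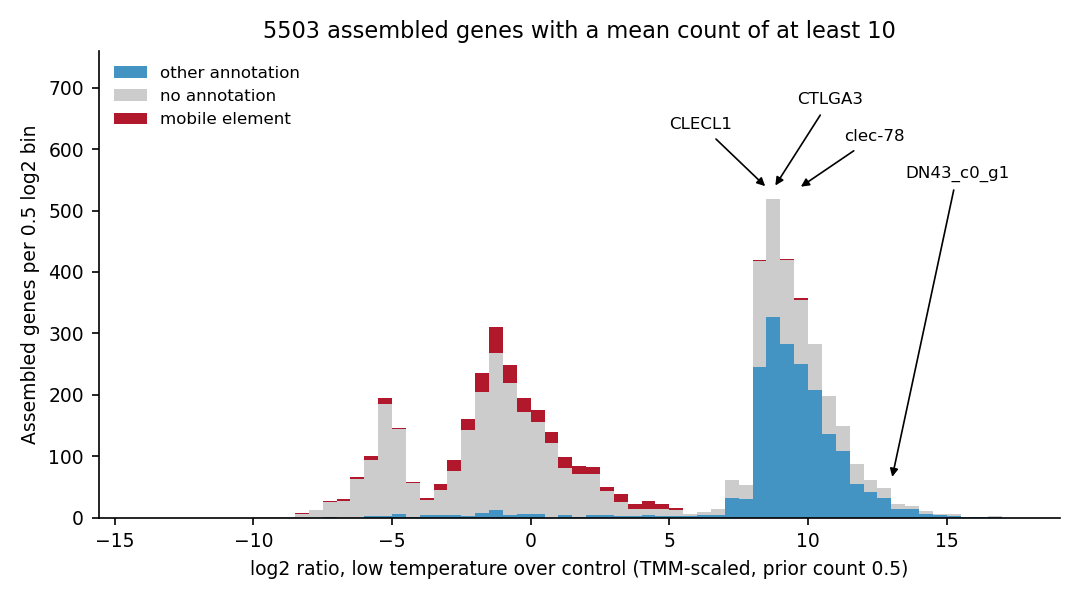
Number of assembled genes (y axis) by log2 ratio of low temperature to control (x axis, TMM scaling, prior count 0.5) for the 5503 tested genes, coloured by annotation. The lectin gene TRINITY_DN43_c0_g1 lies at 13.00, on the right flank of the annotated genes, and CLECL1, CTLGA3 and clec-78 lie at 8.56, 8.74 and 9.62, values set in part by the prior count because their control counts are 0.

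Set against other cellular transcripts of the same library, the lectin gene's level could not be told apart between the 3 libraries at this depth. Contigs of cytosolic ribosomal proteins, the protein part of the translation machinery, served as one yardstick. Over 140 contigs they summed to 15441 counts in low temperature, 13 in low salinity and 14 in control. Per 100 of these counts the lectin gene had 47.0 counts in low temperature (exact conditional binomial interval 45.7 to 48.3), 46.2 in low salinity (14.4 to 130.2) and 50 in control (17.1 to 132). The ratio of the low-temperature to the control value was 0.939 with an interval from 0.355 to 2.75. For low temperature against low salinity it was 1.02 (0.361 to 3.27), and for low salinity against control 0.925 (0.198 to 4.22). The yardstick counts described contigs alone, while the lectin sum includes its unannotated contigs. With all contigs of the ribosomal protein genes, an alternative added after the data were seen, the yardstick held 17665 counts in low temperature, 21 in low salinity and 17 in control. The lectin gene then had 41.1 per 100 in low temperature (39.9 to 42.2), 28.6 in low salinity (9.44 to 73.2) and 41.2 in control (14.4 to 104). This measure needs no scaling between libraries, but its intervals for low salinity and control rest on 6 and 7 lectin counts.

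A second yardstick, again of described contigs alone and added after the data were seen, gave close values in low temperature and control. Heat shock proteins and chaperones, which help other proteins fold, summed to 9740 counts in low temperature, 2 in low salinity and 9 in control. Per 100 of them the lectin gene had 74.5 counts in low temperature (72.2 to 76.8), 300.0 in low salinity (53.6 to 3039) and 77.8 in control (24.6 to 235). The ratio of low temperature to control was 0.957 (0.317 to 3.03). In low temperature against low salinity it was 0.248 (0.0245 to 1.39), an interval that includes 1. All contigs of these chaperone genes held 13554 counts in low temperature, 3 in low salinity and 9 in control. That sum lowers the low-temperature value and leaves the control value as it was. The closeness of the 2 values therefore depends on which contigs are counted, and no interval was computed with that sum.

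**Figure D4:**
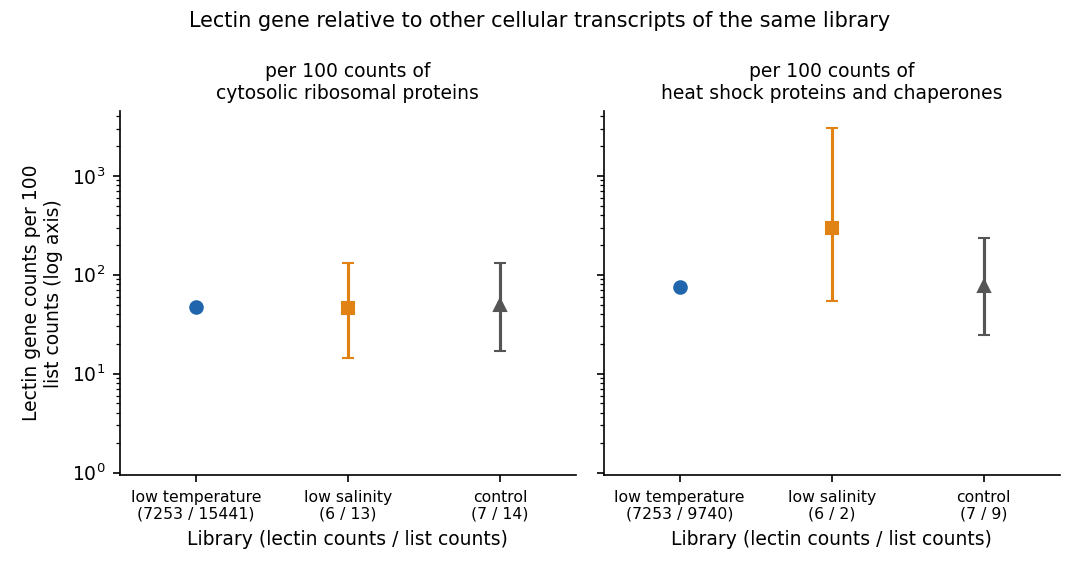
Lectin gene counts per 100 counts of cytosolic ribosomal proteins (left) or of heat shock proteins and chaperones (right) within each library, on a logarithmic y axis with exact conditional binomial 95% intervals. With ribosomal proteins the 3 libraries lie at 47.0, 46.2 and 50, and the intervals of low salinity and control include the low-temperature value.

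The small counts of the lectin gene in the other libraries were also set beside those of other genes with many low-temperature counts. In all, 67 annotated genes outside mobile elements had at least 1000 counts in low temperature, a limit chosen after the data were seen. Of them 33 were at 0 in low salinity, and 29 had 1 to 10 counts there. In control 30 were at 0 and 30 had 1 to 10. For every 1000 counts in low temperature the lectin gene had 0.827 in low salinity (0.304 to 1.80) and 0.965 in control (0.388 to 1.99). The medians of the 67 genes were 0.153 for low salinity and 0.307 for control. In control 16 genes had a higher value than the lectin gene and 50 a lower one, and in low salinity 17 and 49. Most of these genes had fewer low-temperature counts than the lectin gene, with a median of 1579, so a value of 0 is easier to reach for them. The 5 others with at least as many low-temperature counts had 0 to 10 counts in low salinity and 0 to 13 in control, and all 5 had lower values per 1000 than the lectin gene in both libraries. The ribosomal protein contigs had 0.842 in low salinity and 0.907 in control, inside the lectin gene's intervals. What put these few counts in both libraries was not tested.

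**Figure D5:**
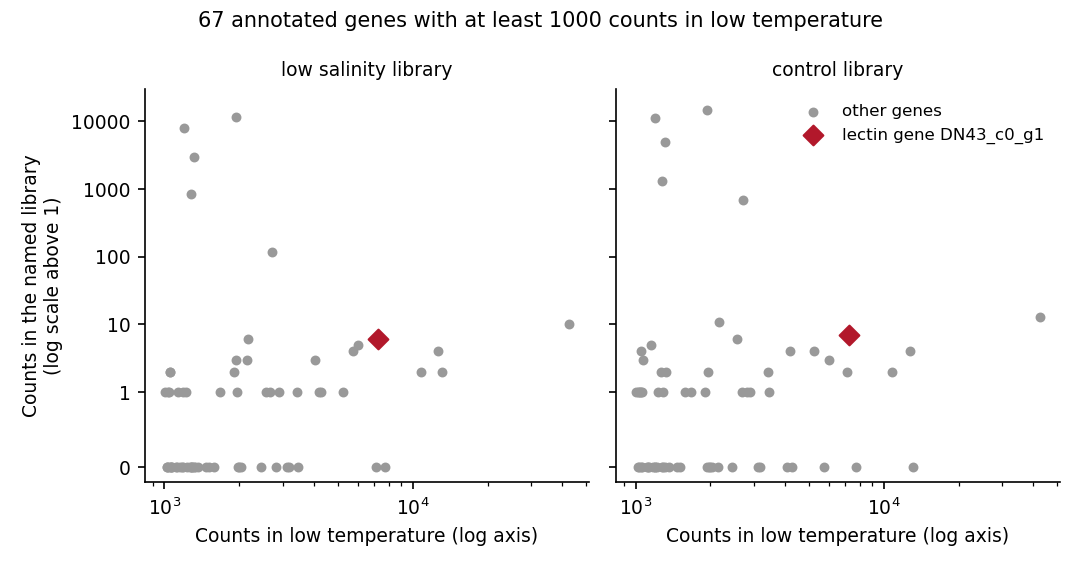
Counts in low salinity (left) or control (right) on the y axis, logarithmic above 1, against counts in low temperature on a logarithmic x axis, for 67 annotated genes with at least 1000 low-temperature counts. The lectin gene, at 7253 on the x axis, lies at 6 in low salinity and at 7 in control, among genes that mostly have from 0 to 10.

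The annotated genes most alike in level across the 3 libraries were led by metabolic, cytoskeletal and muscle genes. Likeness was the Euclidean distance on log2 CPM (TMM scale, 0.5 added) over 3 libraries, not corrected for length, among 4519 annotated genes whose median distance was 8.88. The nearest was FABP6 (TRINITY_DN30239_c0_g1), a fatty acid-binding protein, at a distance of 0.852 with 5998 counts in low temperature, 5 in low salinity and 3 in control. The beta-actin gene ACTB (TRINITY_DN31_c0_g1) followed at 1.07 with 12689, 4 and 4 counts in the same order of libraries. The muscle myosin heavy chain unc-54 (TRINITY_DN17_c0_g1) lay at 1.64 with 10745, 2 and 2. F46H5.3 (TRINITY_DN20_c0_g1), described as an ATP:guanido phosphotransferase, the enzyme family of arginine kinase, lay at 1.76 with 5255, 1 and 4. The serine protease TMPRSS9 (TRINITY_DN90_c0_g1) was the fifth, at 1.81, with 2171, 6 and 11.

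Genes taken by text from 6 lists of words for arthropod immunity had the same direction. The words also caught genes of other roles, such as CALR, LMAN1 and PAPLN, so the totals below are not those of immune genes alone. The lists cover other lectins, pattern recognition with complement-like proteins, the prophenoloxidase and serine protease cascade, antimicrobial effectors, Toll and IMD signalling, and clotting with hemocyte proteins. They hold 33 genes, with 6026 counts in low temperature, 8 in low salinity and 11 in control. All 24 that passed the mean-count filter passed the size rule as higher in low temperature than in control. The shares were 96.5% of annotated genes outside mobile elements and 58.3% of all tested genes. Of the 24, 17 had counts in low temperature alone, and all 24 reached the mean count through that library, so their calls were fixed by the filter. Their median log2 ratio was 10.10, or 8.37 with libraries at 0 set to 3 counts, beside 9.37 and 7.86 over the annotated genes. No listed gene had more than 3 counts in low salinity or 6 in control. In low salinity against control 5 of the 24 passed the size rule as higher, each with 1 count against 0, and 2 as lower, with 0 counts against 1 or 2. These calls come from the prior count and show no difference at this depth. Of the annotated genes 6.49% were called higher and 11.2% lower in that comparison, and of all tested genes 5.07% and 14.6%. The 1 listed gene at 0 in low temperature, an A2ML1 gene (TRINITY_DN1874_c0_g2) singled out after its values were seen, had 3 in low salinity and 6 in control.

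Among other lectin folds all 5 tested genes of 7 were higher in low temperature than in control, beside 96.5% of annotated genes outside mobile elements. The calls given for each list, here and below, are among those fixed by the filter. CALR (TRINITY_DN446_c0_g1), calreticulin, a chaperone that binds sugars on new proteins in the endoplasmic reticulum, had 1136 counts in low temperature, 1 in low salinity and 0 in control. LMAN1 (TRINITY_DN30402_c0_g1), a cargo receptor between the endoplasmic reticulum and the Golgi, had 228, 1 and 0 in the same order. The members of this list with the most counts therefore work inside the secretory pathway. Pattern recognition and complement-like proteins had 3 tested genes of 5, all higher. A2ML1 (TRINITY_DN18583_c0_g1) and A2M (TRINITY_DN29532_c0_g1), of the macroglobulin family of protease traps, had 310 and 134 counts in low temperature, 1 and 0 in low salinity, and 0 each in control.

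The prophenoloxidase and serine protease list had 9 tested genes of 10, all higher, but its leading members are a protease inhibitor and a matrix protein. A Kazal-type serine protease inhibitor (TRINITY_DN537_c0_g1) had 605 counts in low temperature, 0 in low salinity and 0 in control, and PAPLN (TRINITY_DN543_c0_g1), papilin of the extracellular matrix, had 285, 0 and 0. Clip-domain proteases, which drive melanisation in insects and crustaceans, were not matched by the list's words. They were found by their mosquito symbols after the values were seen. The 10 genes with such a symbol summed to 3770 counts in low temperature, 2 in low salinity and 4 in control, led by CLIPA10 (TRINITY_DN116_c0_g1) with 1967, 1 and 2. In the mosquito the CLIPA group consists mainly of protease homologs without catalytic activity.

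Toll and IMD signalling matched 3 genes, of which 1 was tested and higher. That was key (TRINITY_DN21414_c0_g1), the fly's NEMO subunit in the IMD pathway, with 42 counts in low temperature, 0 in low salinity and 0 in control. A gene described as Spaetzle (TRINITY_DN21731_c0_g1), the Toll ligand, had 22, 0 and 0. Clotting and hemocyte words gave 6 tested genes of 8, all higher. Their leaders were F9 (TRINITY_DN164_c0_g1), named after a vertebrate coagulation protease, with 803, 0 and 1, and a protein with a single von Willebrand type C domain (TRINITY_DN174_c0_g1) with 716, 1 and 0. No contig was matched by the words for antimicrobial peptides or lysozyme.

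The authors' deposited gene-level tables show the main lectin gene without its name. In the authors' deposited normalized table each gene is given by 1 contig, and TRINITY_DN43_c0_g1 is given by the unannotated contig i10, which held 6.54% of the gene's low-temperature counts. Its authors' normalized value was 1180 in low temperature and 0 in low salinity and 0 in control. For low temperature against control, the authors' deposited table gives this contig a log2 fold change of 12.68 with a standard error of 1.44 and an adjusted p of 9.11e-17. In the authors' deposited table for low salinity against low temperature, which puts low salinity on top, it is -12.69 with an adjusted p of 7.61e-17. In the authors' deposited table for low salinity against control it is 0 with an adjusted p of 1. The sources used here do not name the model behind these p-values, and each condition had 1 library. For clec-78 the authors' deposited normalized value was 393 in low temperature, 4.98 times its 79 counts, while the factor of that library is 2.49. Its contig is listed 2 times in the count table.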

How the data were processed

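The submitters' processing notes name Salmon 1.10.2, fastp 0.23.2 and FastQC 0.11.9. The assembler, the annotation tool and any build are not named by the labels or file headers used here. The authors deposited estimated counts per contig, whole numbers in the file. The count table had 33093 rows, and 1005 of its 31922 contigs were listed more than once with the same counts, so each was used once. The authors' deposited normalized signal gives 1 contig per gene, and for the main lectin gene it is that contig's count times a library factor. The authors' deposited tables of comparisons hold, per the file headers, a baseMean score, log2 fold changes, their standard errors, a statistic (score) and p-values. Here contigs were summed per assembled gene. TMM factors (edgeR 4.0.16, R 4.3.3) came from contigs with a mean count of at least 10, the same limit was set for genes tested, and log2 ratios used a prior count of 0.5. No test was run, as each condition has 1 library, and the size rule was an absolute log2 ratio of at least 1. Intervals are exact (scipy 1.17.1), and reads amplified without molecular identifiers cannot be taken as independent molecules. The scaling code was run on simulated counts in which 200 contigs were raised 8-fold in a single library and all others were unchanged. In the real data 58.3% of tested genes were called higher and 27.9% lower in low temperature than in control. That run therefore cannot show whether TMM scaling holds for these libraries.

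Named were every member, the 2 genes with the most counts in each list, and the 5 annotated genes nearest in level. Members and lists were chosen with earlier results of these data known. Words that matched unrelated proteins, such as thioesterases, were removed from the lists after the descriptions were read. Alternatives were total counts, median-of-ratios and upper-quartile scaling, another prior count, other filters, rows as listed, and 1 contig per gene.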

Additional observations from a re-analysis of the deposited data

How the results depend on the processing

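No paired analysis was possible because each condition has 1 library. The direction of the lectin gene in low temperature was kept under the other between-library scalings, filters and prior count, but its size depended on the scaling. Its log2 ratio to control, 13.00 in the report, was 9.54 with total counts, 9.75 with upper-quartile scaling, 11.43 with TMM factors from unfiltered contigs, 11.99 with a prior count of 5, 11.20 with the authors' normalized value and 11.91 with contig i7 alone, which was added after the data were seen. To low salinity, 12.43 in the report, it was 9.20 with total counts, 8.87 with upper quartile, 10.71 unfiltered and 11.20 with the authors' normalized value. The authors' normalized value is that of contig i10 alone, at 0 in both other libraries, so 11.20 depends on the prior count. The other alternatives, and all of those for low salinity against control, stayed within counting error. The 3 other lectin genes higher in low temperature became 0 with a mean count of at least 50, since none of them reaches that limit. Per 100 ribosomal protein counts, the low-temperature value of 47.0 was 31.0 with rows as listed, because ribosomal contigs are listed more often, 22.0 with contig i7 alone and 45.1 with the list before unrelated proteins were removed. With all contigs of the ribosomal protein genes it was 41.1. The control value was 46.7 (16.1 to 122) with rows as listed and 50 (17.1 to 132) with contig i7 alone. In low salinity these alternatives gave 31.6 (10.3 to 82.2) and 23.1 (4.22 to 84.0). The intervals include the low-temperature values, but with i7 alone the low-temperature and control values lie further apart than with the gene sum. Heat shock proteins as yardstick, by described contigs alone, gave 74.5 in low temperature and 300.0 in low salinity. Relative to the described contigs of these yardsticks the ratio of low temperature to control was 0.939 and 0.957, with intervals that include 1. In low temperature against control, genes higher made up 67.6% of those past the size rule with TMM, and 52.3% with total counts. In low salinity against control these shares were 25.8% with TMM, 18.1% with total counts and 38.8% with upper quartile. Depth limits low salinity and control, where the lectin gene rests on 6 and 7 counts.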
